A study of Homo sapiens with 12 samples.

Results

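The genes described here are 34 noncoding RNAs that had reads in every CR3 library and few or none elsewhere. They are the autosomal genes typed lincRNA, antisense or processed_transcript by GENCODE 29 that had at least 10 normalized reads in each CR3 library and a CR3 mean at least 4 times the mean of the 9 other libraries. SNHG genes, which host snoRNAs, were left out. The rule found 34 of 11908 autosomal noncoding genes in a table of 63677 identifiers. They were thus chosen by their measured levels in CR3 against the other libraries, and those levels are given as a description without a test. The count of 19 lincRNAs, 11 antisense RNAs and 4 processed transcripts was spread over 20 chromosomes, with 5 genes on chromosome 12.

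Poly(A) RNA was sequenced from HCT116, an established human colorectal cancer line, in 12 libraries. The 4 genotypes were CR3, mCherry, scramble and reverse, with 3 libraries each. CR3 is a peptide said in the title to perturb condensates, the membraneless assemblies of protein and RNA, mCherry is a fluorescent protein labelled as the control, and of the scramble and reverse constructs the labels give the names alone. All cells of all groups had received doxycycline, which switches on inducible constructs, labelled as 1 ug/ul and 48, the time without its unit. The series text speaks of cell clones, and neither the number of clones per genotype nor separate cultures are stated, so the spread between libraries may be technical. Levels are normalized reads, that is, rebuilt read counts over the size factor that the authors used for each library.

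Long noncoding RNAs are transcripts with no long reading frame, usually spliced and polyadenylated like messenger RNA and often present at low levels in few cell types. Many start close to a protein-coding gene, on its opposite strand and from the same promoter region, and the pair is then often active in the same cells. Well-known examples lie beside homeobox and other developmental transcription factors, where they mark the identity of a tissue, and some bind chromatin regulators such as the Polycomb repressive complexes.

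The promoters of 6 of these RNAs with the highest CR3 means are printed first, to show the sequence at which these RNAs start. Each window runs from 250 bases before to 50 bases after the RefSeq start on GRCh38.p14, on the RNA's own strand. Capitals mark matches to the CCAAT box (CCAAT or ATTGG), the GC box (GGGCGG or CCGCCC), the E-box CACGTG or the p53 decamer. The last is the 10-base motif whose pairs are bound by the tumor suppressor p53. TP53TG1, a gene named as a target of p53, was added after its values were seen, as was the search for the p53 decamer.
LINC02381, chr12:54125821-54126120, plus strand: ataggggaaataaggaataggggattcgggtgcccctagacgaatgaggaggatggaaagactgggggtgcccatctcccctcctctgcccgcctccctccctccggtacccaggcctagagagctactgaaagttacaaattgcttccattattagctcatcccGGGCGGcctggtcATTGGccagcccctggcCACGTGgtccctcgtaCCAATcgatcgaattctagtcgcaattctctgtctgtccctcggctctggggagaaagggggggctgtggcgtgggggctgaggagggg
LINC02593, chr1:919643-919942, minus strand: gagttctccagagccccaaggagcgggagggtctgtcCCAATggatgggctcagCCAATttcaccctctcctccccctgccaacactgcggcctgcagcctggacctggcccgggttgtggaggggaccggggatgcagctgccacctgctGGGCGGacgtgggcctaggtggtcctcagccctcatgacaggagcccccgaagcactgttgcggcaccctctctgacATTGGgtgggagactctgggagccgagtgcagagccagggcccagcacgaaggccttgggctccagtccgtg
HCG11, chr6:26521456-26521755, plus strand: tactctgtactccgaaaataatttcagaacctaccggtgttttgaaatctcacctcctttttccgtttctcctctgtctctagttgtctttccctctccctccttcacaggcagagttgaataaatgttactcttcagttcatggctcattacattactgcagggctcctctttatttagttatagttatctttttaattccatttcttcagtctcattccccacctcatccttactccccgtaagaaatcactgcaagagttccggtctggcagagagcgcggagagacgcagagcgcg
PURPL, chr5:27472042-27472341, plus strand: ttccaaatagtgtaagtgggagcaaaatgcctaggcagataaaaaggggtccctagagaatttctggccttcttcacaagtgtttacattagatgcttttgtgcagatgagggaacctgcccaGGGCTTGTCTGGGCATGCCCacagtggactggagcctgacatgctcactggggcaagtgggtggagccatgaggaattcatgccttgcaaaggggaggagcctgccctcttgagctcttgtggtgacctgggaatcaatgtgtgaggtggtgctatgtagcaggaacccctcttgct
NNT-AS1, chr5:43603181-43603480, minus strand: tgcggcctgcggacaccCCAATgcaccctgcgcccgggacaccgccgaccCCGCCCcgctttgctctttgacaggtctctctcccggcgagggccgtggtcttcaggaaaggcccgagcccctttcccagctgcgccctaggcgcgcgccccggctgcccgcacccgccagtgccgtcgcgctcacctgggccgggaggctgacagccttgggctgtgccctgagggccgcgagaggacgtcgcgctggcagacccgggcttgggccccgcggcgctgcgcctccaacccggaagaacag
FENDRR, chr16:86508811-86509110, minus strand: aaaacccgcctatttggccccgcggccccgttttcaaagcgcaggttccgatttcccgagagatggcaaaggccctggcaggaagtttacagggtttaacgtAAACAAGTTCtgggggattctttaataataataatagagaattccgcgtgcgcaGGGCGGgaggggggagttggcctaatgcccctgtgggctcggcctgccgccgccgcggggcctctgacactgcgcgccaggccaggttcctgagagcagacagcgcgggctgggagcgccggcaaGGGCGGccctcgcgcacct
TP53TG1, chr7:87345443-87345742, minus strand: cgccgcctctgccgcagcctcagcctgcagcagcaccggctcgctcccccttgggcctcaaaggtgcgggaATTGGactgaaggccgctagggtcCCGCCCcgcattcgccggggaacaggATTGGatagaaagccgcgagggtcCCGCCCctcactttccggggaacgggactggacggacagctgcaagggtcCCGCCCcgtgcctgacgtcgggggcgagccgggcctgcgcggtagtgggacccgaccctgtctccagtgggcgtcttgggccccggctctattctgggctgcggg

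The windows differed widely in composition. The NNT-AS1 window held 34 CG dinucleotides at 74.0% GC, TP53TG1 held 29 and FENDRR 26, whereas the PURPL window held 0 CG at 52.0% GC. PURPL had a pair of adjacent p53 decamers, marked as the 20 capitals, and FENDRR had 1 decamer. TP53TG1 had 3 GC boxes, 2 CCAAT boxes and no p53 decamer. LINC02593 had 3 CCAAT boxes, though its RefSeq start lies 1324 bases from the GENCODE one. A promoter entry was found for 17 of the 34 RNAs, 14 of them within 500 bases of the GENCODE start. Of these 17 windows, 9 (52.9%) were rich in CpG, with an observed over expected ratio above 0.6 and GC above 50%, against 46.9% of 33725 autosomal promoters and 28.0% of 2362 promoters of noncoding genes of these types. Searched on both strands, the CCAAT box was found in 9 of 17 (52.9%, against 34.4% of all autosomal promoters) and the GC box in 10 (58.8%, against 45.0%). The sequence TATAAA occurred in 3 (17.6%, against 11.6%), CACGTG in 2 (11.8%, against 7.18%) and the p53 decamer in 3 (17.6%, against 6.64%). Of the 2362 noncoding promoters 35.4% held the CCAAT box, 27.6% the GC box, 13.9% TATAAA, 5.80% CACGTG and 7.41% the decamer. No marked matches overlap in the 7 windows shown, a match is not a bound site, and no share was tested.

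The RNAs together made up 924.9, 1079 and 1079 normalized reads in the CR3 libraries, and between 21.1 and 55.5 in each of the 9 others. That was 0.00494% to 0.00583% of all reads in CR3. In 10 of the 34 no read was found in any mCherry, scramble or reverse library, 7 had 1 to 3 reads over those 9 libraries and 17 had more. Reads were found for 19 of the 34 in mCherry, 19 in scramble and 18 in reverse. Every CR3 library lay above every other library for all 34, which the rule nearly fixes, beside 13.8% of the 15266 genes tested. For 5 of the 34, named further on, this may depend on a value whose decimal place was ambiguous. The rule was met by 34 of the 889 noncoding genes with at least 10 normalized reads in each CR3 library (3.82%), and by 4.01% of the 12479 protein-coding genes with that many. With another group in the place of CR3 the same rule found 3 genes in mCherry, 2 in scramble and 5 in reverse, and among noncoding genes with at least 10 normalized reads in each of the 9 others it found 0 at least 4 times lower in CR3. Of 13 tested kidney and neuron-like markers, listed further on, 8 were higher in CR3 than in all 3 other groups and 1 was lower. Over all genes tested 11.0% were higher and 11.4% lower. Among the 8, IRS4 had a mean of 549.8 normalized reads in CR3 and at most 4.70 in another group. Such a marker entered the test through its CR3 reads and could hardly be called other than higher. The list was also chosen with earlier results of these data known, so nothing is read from the share. In bulk libraries a low level in all cells and a high level in few cells cannot be told apart.

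**Figure D1:**
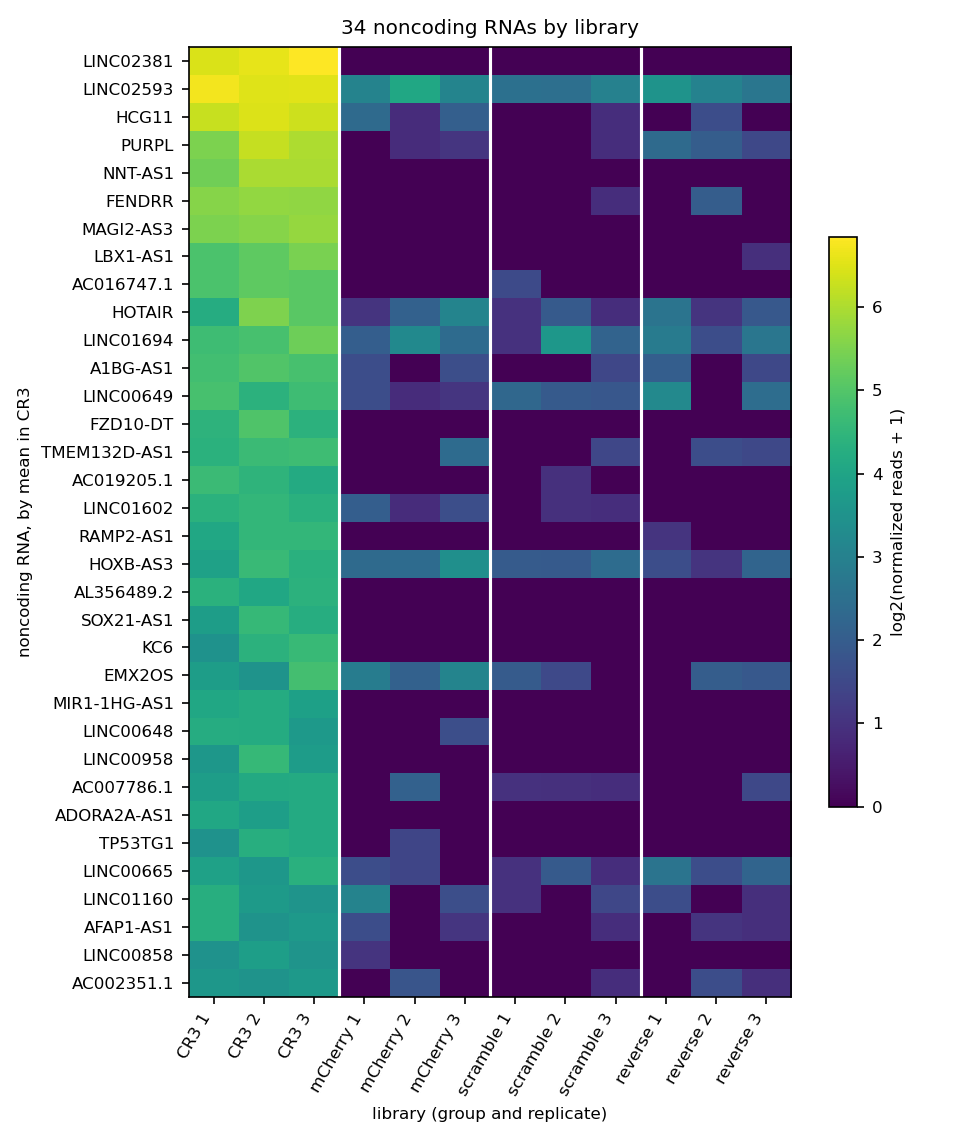
Levels of the 34 noncoding RNAs (rows, ordered by their CR3 mean) in the 12 libraries (columns, CR3 first), as log2(normalized reads + 1) by color. The 3 CR3 columns are bright in all rows, and in the other 9 columns the darkest color marks no read, as in all 9 for LINC02381, NNT-AS1 and MAGI2-AS3.

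The levels were low even in CR3. Means were at least 50 normalized reads for 6 RNAs, from 20 to 50 for 12 and under 20 for 16, with a median of 20.1. Per kb of exon the CR3 means ran from 1.71 to 42.6 normalized reads, with a median of 6.45. The 5 highest per kb were LINC02381 (42.6), LINC02593 (23), PURPL (22.9), AC007786.1 (19.1) and AC002351.1 (18.8). The other noncoding genes with at least 10 normalized reads in each CR3 library, 855 in number, had a median of 20.9 per kb. The coefficient of variation over the 3 CR3 libraries ran from 5.05% for FENDRR to 51.6% for EMX2OS, with a median of 17.8%. The first CR3 library was the lowest of the 3 for 20 of the 34 RNAs, and the second was the highest for 15.

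HOTAIR and HOXB-AS3 lie within HOX clusters, whose homeobox genes set position along the body axis, and LINC02381 lies close by. LINC02381 (ENSG00000250742, chr12:54126098-54142493), a lincRNA downstream of the HOXC cluster, had 85.9, 95.6 and 113.7 normalized reads in the CR3 libraries and no read in the other 9. With a floor of 3 reads per library for the 9 others, its mean of 98.4 ± 14.1 (SD, n = 3) was at least 34-fold higher in CR3. HOTAIR (ENSG00000228630, chr12:53962308-53974956), the antisense RNA of the HOXC cluster known for binding Polycomb complexes, lies 151 kb away, and no other pair of these RNAs lies within 1 Mb. HOTAIR had 17.8, 44.7 and 33.0 normalized reads in CR3, against 1.04, 3.36 and 7.47 in mCherry, 0.959, 2.80 and 0.877 in scramble, and 5.21, 1.02 and 2.70 in reverse. It was thus present at low levels in all 4 groups, with a mean 11.3 times higher in CR3. HOXB-AS3 (chr17:48549630-48606414), which spans part of the HOXB cluster on the opposite strand and the microRNA gene MIR10A, had 14.0, 23.7 and 19.1 in CR3, against 1.02 to 9.60 in the other 9 libraries.

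Other RNAs start beside, or lie nearest to, transcription factors or receptors that act in development. FENDRR (ENSG00000268388, chr16:86474529-86509099), which in mice is needed in tissues from the lateral mesoderm, had 47.6, 52.6 and 51.0 normalized reads in CR3. Its reads elsewhere were 4 in all, in the third scramble and the second reverse library, for a ratio of 115. LBX1-AS1 (chr10:101229594-101270148), beside the homeobox gene of migrating muscle precursors, had 29, 34.2 and 43.6 in CR3 and 1 read in the 9 others. Its ratio was 331, with an exact 95% counting interval of 58.1 to 13175. Such intervals cover counting error only, and reads without molecular identifiers are not independent molecules. FZD10-DT (chr12:130144315-130162256), divergent from a Wnt receptor gene, had 20.6, 29.8 and 20.2 in CR3 and no read elsewhere, at least 8.12-fold higher. SOX21-AS1 had 13.1, 22.8 and 18.1 in CR3 and MIR1-1HG-AS1, upstream of GATA5, had 15.9, 17.5 and 13.8, again with no read elsewhere (at least 6.21-fold and 5.44-fold higher). MIR1-1HG-AS1 and GATA5 lie on the same strand, with starts 75556 bases apart. EMX2OS (chr10:117473215-117545068), opposite the homeobox gene EMX2 of forebrain and urogenital tract, was the most uneven. It had 13.1, 10.5 and 26.6 in CR3, against 6.27, 3.36 and 7.47 in mCherry, 2.88, 1.87 and 0 in scramble, and 0, 3.07 and 2.70 in reverse.

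PURPL and TP53TG1 are both known as RNAs that p53 switches on. PURPL (ENSG00000250337, chr5:27472292-27496401), described as keeping p53 protein low, had 43.9, 74.6 and 62.7 normalized reads in CR3. It had 0, 0.841 and 1.07 in mCherry, 0, 0 and 0.877 in scramble, and 4.17, 3.07 and 1.80 in reverse, so that the CR3 mean of 60.4 ± 15.5 (SD, n = 3) was 46.0 times that of the 9 others. TP53TG1 (chr7:87325225-87345515) had 10.3, 18.4 and 17.0 in CR3 and 2 reads elsewhere, both in the second mCherry library. The ratio of 71.5 had a counting interval from 18.7 to 607.2.

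A further group lies opposite or divergent to genes with other functions. LINC02593 (ENSG00000223764, chr1:916865-921016), upstream of SAMD11, had 104.6, 90.4 and 91.4 normalized reads in CR3 and 4.67 to 16.0 in the 9 others, the highest background among these RNAs, for a ratio of 12.2. NNT-AS1 (ENSG00000248092, chr5:43571594-43603230) had 40.2, 62.3 and 61.6 in CR3 and MAGI2-AS3 (ENSG00000234456, chr7:79452877-79471208) 43.9, 47.4 and 53.1. Neither had a read elsewhere, so that they were at least 18.9-fold and 16.6-fold higher. AC016747.1, also named C2orf74-DT, had 29, 34.2 and 33.0 in CR3 and 2 reads in the 9 others, both in the first scramble library. A1BG-AS1 had 26.2, 30.7 and 27.6 in CR3 and 0 to 3.12 elsewhere, and RAMP2-AS1 had 15.9, 21.9 and 22.3 in CR3 and 1 read elsewhere. LINC00649, with the lowest level per kb in CR3, had 28.0, 20.2 and 25.5, against 0 to 8.33 in the other libraries. ADORA2A-AS1 had 15.9, 13.2 and 17.0 in CR3 and no read elsewhere.

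The rest are mostly intergenic. HCG11 (ENSG00000228223, chr6:26521709-26527404), a single-exon gene near the histone genes of chromosome 6, had 76.6, 87.7 and 78.7 normalized reads in CR3. It had 4.18, 0.841 and 3.20 in mCherry, 0, 0 and 0.877 in scramble, and 0, 2.05 and 0 in reverse, for a ratio of 65.4. LINC01694 had 25.2, 28.1 and 39.3 in CR3 and 0.959 to 11.2 in the other libraries, a ratio of 6.15. TMEM132D-AS1 had 19.6, 24.6 and 25.5 in CR3 and LINC01602 had 19.6, 21.9 and 19.1, with 10 and 8 reads elsewhere. KC6 (10.3, 20.2 and 23.4 in CR3), LINC00958 (11.2, 22.8 and 12.8), an RNA described as raised in bladder cancer, and LINC00648 (17.8, 17.5 and 11.7) had no read elsewhere except 2 in the third mCherry library for LINC00648. AC019205.1, AL356489.2, AC007786.1, LINC00665, LINC01160, AFAP1-AS1, LINC00858 and AC002351.1 had CR3 means of 11.1 to 20.8 and from 0 to 20 reads over the 9 others.

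RNAs close to the ratio limit lay near genes that missed it. Just inside it were HOXB-AS3 (ratio 4.91), EMX2OS (5.45) and LINC01694 (6.15), and genes just outside it included SLC12A5-AS1 (3.77) and LINC00426 (3.04). HOXB-AS3 and SLC12A5-AS1 each had 1 value whose decimal place was ambiguous. Their ratios, and the side of the limit on which they lie, may depend on the place chosen. Another 53 noncoding genes met the ratio with a CR3 mean of at least 5 normalized reads but missed the minimum of 10 in some CR3 library.

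In the limma fit on log2(normalized reads + 1) over all 12 libraries, 29 of the 34 RNAs were tested. The other 5 (LINC02593, HOTAIR, HOXB-AS3, LINC01160 and AFAP1-AS1) had a value whose decimal place was ambiguous and were left out of the fit. Their levels, their ratios and their place among the 34 may depend on the decimal place chosen. With genes of ambiguous values left out, 29 RNAs met the rule. Adjusted p was under 0.05 in the same direction against mCherry, scramble and reverse for 28 of the 29, beside 11.0% of the 15266 genes tested and 6.48% of the 1096 noncoding ones. Since the same contrast chose the RNAs, nothing is read from this count. The exception was EMX2OS, with an adjusted p of 0.0864 against mCherry. The median log2 fold change of the 29 was 4.06 over mCherry, 4.11 over scramble and 4.04 over reverse, comparisons that share the CR3 libraries. It was 3.28, 3.09 and 2.77 with genes of no reads in a group set at the floor, and 0.00, 0.01 and 0.01 over all genes tested.

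Contrasts among the 3 other groups asked whether the RNAs differ between control constructs. The rule also limited the mean over these 9 libraries, the RNAs entered the fit through their CR3 reads and 10 have no read in any of the 9, so a count near 0 was largely set beforehand and nothing is read from it. The limma fit called 0 of the 29 in each contrast, beside 1.53% of all genes for scramble against mCherry, 0.655% for reverse against mCherry and 0.452% for reverse against scramble. At an unadjusted p under 0.05 there were 3, 5 and 1, and no other tool was run. PURPL came closest between reverse and scramble, where all 3 reverse libraries (1.80 to 4.17 normalized reads) lay above all 3 scramble libraries (0 to 0.877). Its log2 fold change of 1.66 had an adjusted p of 0.114. LINC01602 had no read in reverse and 3.13, 0.841 and 2.13 normalized reads in mCherry, with an adjusted p of 0.122. HCG11 was lower in scramble than in mCherry in value but overlapped it, with an adjusted p of 0.143. At these depths of a few reads per library, differences among the 3 groups were not detectable, which does not show that they are absent.

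Where the RNAs lie was then set against what their protein-coding neighbours did, a readout of other genes, although from the same contrast. The nearest protein-coding gene within 100 kb was taken for 32 of the 34 RNAs, PURPL and KC6 having none. Of 23 neighbours with a test, 10 (43.5%) were higher in CR3 than in all 3 other groups, beside 11.9% of 13008 protein-coding genes and 11.0% of all genes. A further 3 (13.0%) were lower, beside 12.6% of protein-coding and 11.4% of all genes, and 10 were not called. Of the 10 higher neighbours, 8 averaged under 3 normalized reads in the 9 other libraries. They entered the test through their CR3 reads and could hardly be called other than higher, so the share is not support. Among the 15 neighbours with at least 10 reads in 3 or more of the 9 others, 2 were higher (SAMD11 and FOXF1) and 3 lower, beside 8.61% and 13.2% of 12482 protein-coding genes with as many reads there. The median log2 fold change of the 23 was 0.21 over mCherry, 0.22 over scramble and 0.11 over reverse, also with genes of no reads in a group at the floor, beside 0.00, 0.01 and 0.00 for protein-coding genes.

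NNT, the mitochondrial transhydrogenase that makes NADPH and partner of NNT-AS1, had 248.5, 285.1 and 268.9 normalized reads in CR3, against 0 to 3.20 in the 9 other libraries. The ratio of means was 188.5. On the log2 scale CR3 was higher by 6.83 than mCherry, 6.80 than scramble and 7.23 than reverse, with adjusted p of at most 1.29e-08 in the limma fit. NNT entered the test through its CR3 reads alone and could hardly be called other than higher, so nothing is read from its p. SAMD11 beside LINC02593 had 160.7, 181.6 and 186.0 in CR3 and 9.64 to 27.1 elsewhere, a ratio of 8.62. CROT, a peroxisomal acyltransferase that starts 166 bases from TP53TG1 on the opposite strand, had 36.4, 34.2 and 37.2 in CR3 and 3 reads elsewhere, for a ratio of 112 (counting interval 37.4 to 552). In these 3 pairs both the noncoding RNA and the coding gene were close to absent, or low, outside CR3.

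Developmental regulators were among the other higher neighbours, at lower levels. HOXC11 beside HOTAIR had 27.1, 38.6 and 31.9 normalized reads in CR3 and 0 to 4.38 elsewhere. EMX2 had 14.0, 25.4 and 27.6 in CR3 and 8 reads elsewhere, and GATA5, a regulator of gut and heart development, had 32.7, 46.5 and 37.2 in CR3 and 7 reads elsewhere. LBX1 had 10.3, 8.77 and 18.1 in CR3 and 1 read elsewhere. RAMP2, a partner of calcitonin-family receptors, had 11.2, 9.65 and 11.7 and FAM110B 16.8, 17.5 and 28.7 in CR3, with no read elsewhere (at least 3.75-fold and 7.26-fold higher). All 6 passed in the 3 comparisons, but they entered the test through their CR3 reads alone, so nothing is read from these calls. FOXF1, the mesodermal factor opposite FENDRR, stood apart. It had 126.1, 130.7 and 135.0 in CR3 and 87.5 to 105.5 in the 9 others, a ratio of 1.35. FOXF1 thus had reads in every library where FENDRR was all but missing. Its call was lost without the second or the third CR3 library and without the second or the third scramble library.

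**Figure D2:**
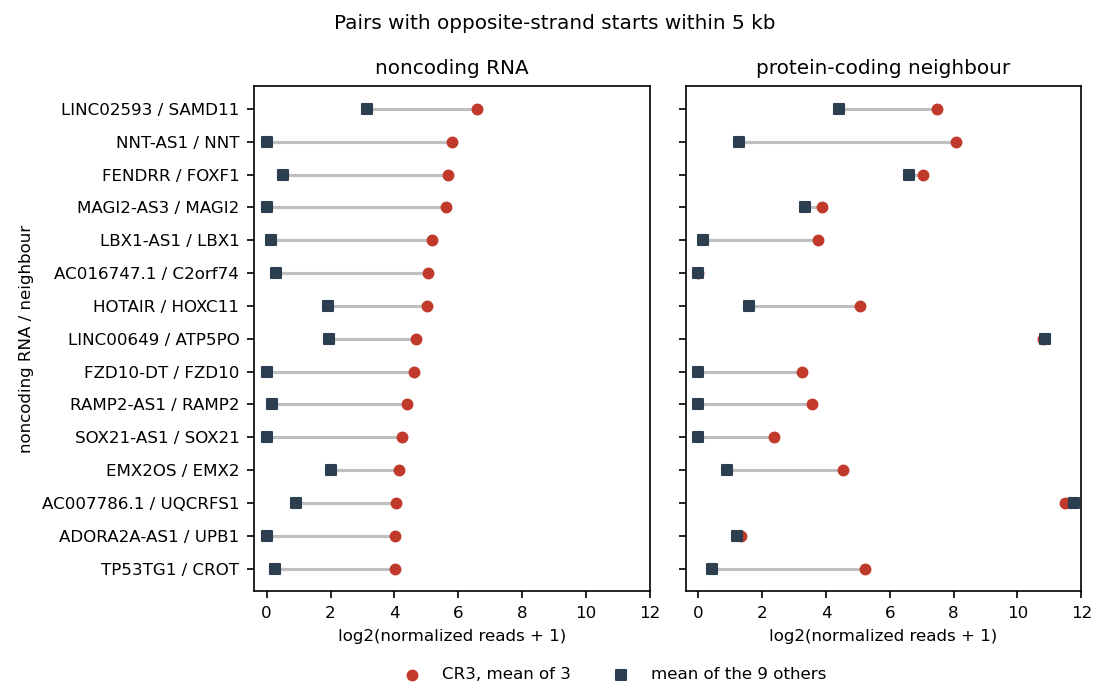
Mean levels of 15 noncoding RNAs (left) and of their protein-coding neighbours (right) whose starts lie within 5 kb on opposite strands, as log2(normalized reads + 1), with CR3 as circles and the mean of the 9 others as squares. The RNAs all move, while neighbours range from NNT, which moves furthest, to ATP5PO and UQCRFS1, which are abundant in both. FOXF1 moves little, with a mean of 130.6 in CR3 and 96.8 in the 9 others.

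Neighbours that were lower changed less than most of the higher ones, TEAD1 the most among them. TEAD1, the DNA-binding partner of YAP and neighbour of LINC00958, had 3403, 3692 and 3470 normalized reads in CR3 and 4935 to 5805 in the 9 others, with a log2 fold change of -0.65 over mCherry, -0.71 over scramble and -0.52 over reverse. HOXB4, within HOXB-AS3, had a mean of 182.0 in CR3 and 231.1 elsewhere, and UQCRFS1, the Rieske subunit of respiratory complex III beside AC007786.1, had 2871 and 3475. The calls of HOXB4 and UQCRFS1 were lost with scaling by library size alone. HOXB4 also lost its call without the first CR3 library, the third CR3 library or the third reverse library. Among untested neighbours, FZD10 had a mean of 8.44 in CR3 and SOX21 of 4.15, each with no read in the 9 others, whereas C2orf74, beside AC016747.1, had no read in any library.

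Neighbours were then sorted by the distance between starts. In 15 of the 34 RNAs the neighbour began within 5 kb on the opposite strand. Of the 11 such neighbours with a test, 8 were higher, 1 lower and 2 not called, and 6 of the 8 entered the test through their CR3 reads alone. Of the 12 other tested neighbours, 2 were higher, GATA5 and FAM110B, both on the same strand as their RNA. These 2 also entered the test through their CR3 reads alone. Over the 13008 protein-coding genes tested 11.9% were higher, and nothing is read from the split by distance. Counting any protein-coding start, 17 of the 34 RNAs (50%) had an opposite-strand start within 5 kb. That was close to the 47.7% of the 855 other noncoding genes read in CR3 and above the 20.3% of all noncoding genes. The labels name a stranded kit, but the strand setting of the counting is unknown here. Reads of an RNA and of a gene that overlaps it on the other strand then cannot be told apart. Exons overlapped in 10 pairs, among them NNT (217 bases), LBX1 (201), RAMP2 (412) and EMX2 (255). With every neighbour that overlaps its RNA left out, 5 of 10 tested neighbours were higher (SAMD11, FOXF1, GATA5, FAM110B and CROT) and 1 was lower (TEAD1). GATA5, FAM110B and CROT had entered the test through their CR3 reads alone, so this count is not support either.

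**Figure D3:**
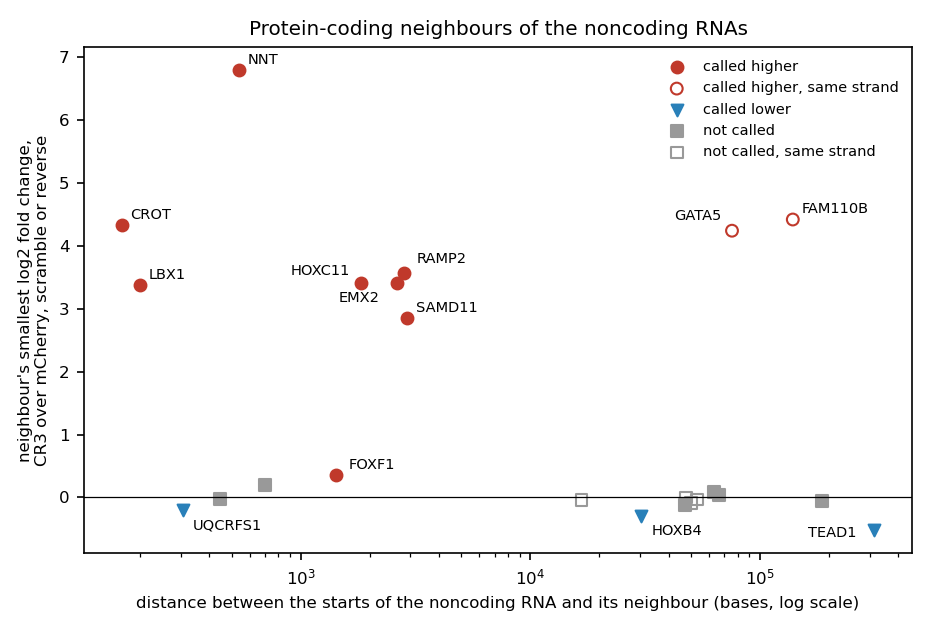
The 23 tested protein-coding neighbours by the distance between their start and that of the noncoding RNA (bases, log axis) and by the smallest in size of their 3 log2 fold changes for CR3 over mCherry, scramble or reverse, on the log2(normalized reads + 1) scale. Filled symbols lie on the opposite strand and open ones on the same strand. Apart from FOXF1, the called increases lie above 2.8, and of these all but GATA5 and FAM110B start within 5 kb. All of these but SAMD11 entered the test through their CR3 reads alone.

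The merged exons of the RNAs had a median length of 3422.5 bases in 5 exons, against 2235 bases in 3 exons for the 855 others read in CR3 and 733 bases in 3 exons for all noncoding genes.

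Other noncoding RNAs of the same kinds were read from lists chosen with earlier results of these data known. Among all 1096 noncoding genes tested, 6.48% were higher in CR3 than in all 3 groups and 3.74% were lower. Of 14 tested RNAs that most cells express, 2 were higher in CR3 than in all 3 groups, TUG1 and TP53TG1. TP53TG1 was chosen by the rule and nearly without reads elsewhere. Another 4 were lower, CYTOR, DANCR, PVT1 and FGD5-AS1. With library size scaling 3 were higher, NORAD being added, and 3 were lower, FGD5-AS1 being lost. TUG1 averaged 3968 normalized reads in CR3, against 2993 in mCherry, and CYTOR 93.6 in CR3, against 158.8 in mCherry. The medians of their log2 fold changes were 0.06 over mCherry, 0.15 over scramble and -0.02 over reverse. Of 10 tested HOX RNAs, HAGLR (64.2 in CR3 and 21.4 in mCherry), HOTAIRM1 (108.9 and 51.1) and HOXA-AS3 (22.1 and 12) were higher. HOXA10-AS (112.0 in CR3 and 152.0 in mCherry) was lower, but not with library size scaling, and the medians were 0.44, 0.52 and 0.66. Of 10 tested RNAs described in colorectal cancer 0 were higher and 5 lower, LNCAROD, ELFN1-AS1, PVT1, UCA1 and LINC01234, the last not so with library size scaling. Their medians were -0.45, -0.48 and -0.58. HOTAIR, among the 34, is on this list and on the HOX list but was left out of the fit for an ambiguous value. Beside developmental transcription factors 6 RNAs were tested, of which FENDRR, itself chosen by the rule, was higher and NR2F1-AS1 lower. Of 3 imprinted RNAs, H19 was lower (43.5 in CR3 and 72.1 in mCherry). Listed RNAs with no row in the table were not analysed here.

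Some markers of other cell types differed in CR3, and their part in the results above was not tested. Of 20 listed markers of embryonic kidney and neuron-like cell lines 17 were in the table and 13 were tested, of which 8 were higher in CR3 and 1, GAL, was lower, though not with library size scaling. Their summed level, most of it from CKB, was 10752 to 12723 normalized reads in the CR3 libraries, against 7806 to 9849 in the 9 others. IRS4 averaged 549.8 in CR3 and at most 4.70 in any other group, UCHL1 493.5 and at most 3.06, NEFM 147.7 and at most 0.932, and VIM 764.4 and at most 97.4. IRS4, UCHL1 and NEFM entered the test through their CR3 reads and could hardly be called other than higher, so the share is not support. STMN2 had no read outside CR3, BEX1 had 1 read in all 12 libraries together, and PAX2, ENO2 and CKB were among those not called. Of 6 tested mesenchymal markers 4 were higher (3 with TMM scaling, which lost FN1, and 5 with library size scaling), and of 3 germline markers 2 (LUZP4 and TEX15). VIM and CDH2 are on both the mesenchymal and the kidney and neuron-like lists and are counted as higher in each. Among blood markers LAPTM5 was higher, and PTPRC had no read in any library. Of the 12 epithelial markers, keratins, EPCAM and CDH1 were abundant in every group, whereas CDX1, CEACAM5, LGALS4, TSPAN8 and VIL1 had group means of 16 normalized reads or less. The sum over the list was 46180 to 53585 in CR3 and 55889 to 63665 in the 9 others, and 5 of the 7 tested (EPCAM, KRT8, KRT18, KRT19 and ELF3) were lower in CR3, of which EPCAM and KRT19 remained so with library size scaling.

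**Figure D4:**
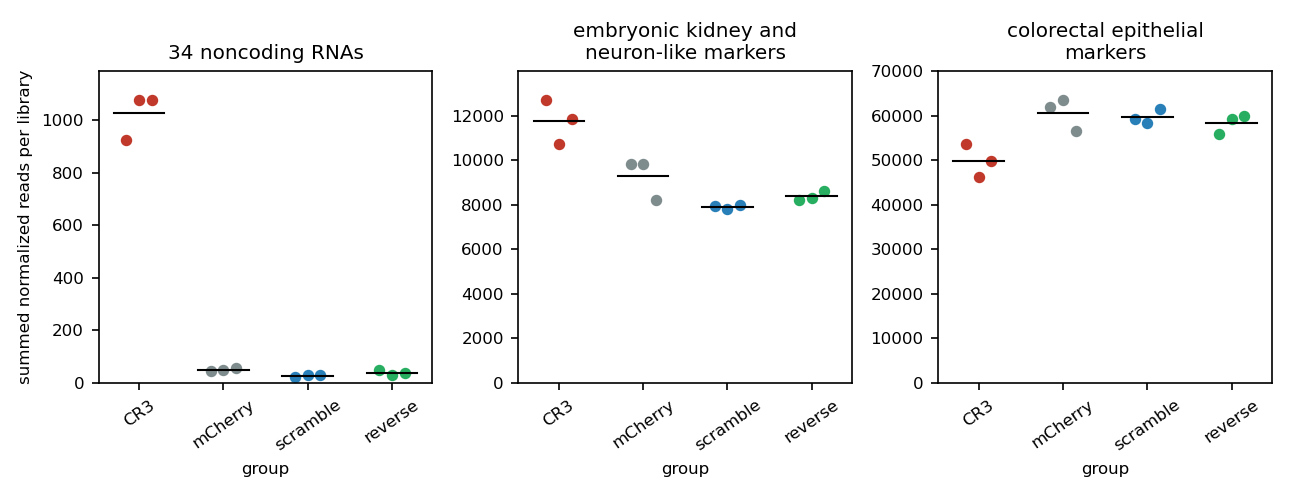
Summed normalized reads per library of the 34 noncoding RNAs (left), the 17 kidney and neuron-like markers (middle) and the colorectal epithelial markers (right), with a point per library and a line at each group's mean. The RNAs' sums in CR3 are 924.9 or more and elsewhere 55.5 or less, the kidney and neuron-like sums, mostly CKB, are higher in CR3 and the epithelial sums lower.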

How the data were processed

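Counts of reads per gene, per the submitters' processing notes from STAR and featureCounts on GRCh38, had been divided by the authors by a size factor for each library. The deposited values had then lost their decimal mark at 1 and above, so they are digits of a normalized count rather than counts. Per the submitters' processing notes the authors also used FastQC, Trim Galore, Salmon, GATK, MultiQC, edgeR and DESeq2. Their versions, the annotation release and the strand setting are not given in these sources.

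The worth of 1 read was found for each library, and all 265152 non-zero values (100%, tolerance 1e-07) were whole multiples of it at some power of 10. The power was chosen by likelihood with the group labels, which draws libraries of a group together. In 1987 values (0.749%) a second power came within 20 times the likelihood of the best, and genes with such a value were left out of tests. Of the 18138 values of 1 read that had kept the mark, 98.4% were read correctly with it hidden. Library totals were 17417966 to 23548210 reads. Within groups the chi-square per degree of freedom was 3.26 to 7.64, above sampling noise, so each library counted as 1 sample. The labels give no batch or date. The rebuilding and the fit were also run on simulated data, drawn with a spread that the rebuilding itself assumes. The outcome is not reported here, and no accuracy is read from it.

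GENCODE 29 matched 52526 of 63677 identifiers, and the other 11151 could not become members. Promoters came from RefSeq on GRCh38.p14. Tests used limma 3.58.1 in R 4.3.3 on log2(normalized reads + 1) with a mean-variance trend and 4 groups, two-sided. This scale understates fold changes of low genes. A filter of 10 or more reads in 3 or more libraries left 16161 genes, or 15266 without those with ambiguous values. Benjamini-Hochberg adjustment ran over all tested genes of a comparison, and calls were made under 0.05. Other steps used Python 3.11.15 (pandas 2.3.3, scipy 1.17.1, numpy 2.4.6, matplotlib 3.10.9).

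The RNAs, gene lists and tests were chosen with earlier results of these data known. Named RNAs were the 25 highest CR3 means with a symbol other than a clone name, the 5 highest per kb, those at the ratio limit and those in the lists. Named neighbours were up to 12 called higher and up to 5 called lower, and named list genes up to 4 per list by fold change. Others were picked after their values were seen. A few genes that the rule or the lists name are not reported here.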

Additional observations from a re-analysis of the deposited data

How the results depend on the processing

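With a pseudocount of 0.5, 1 of the 29 RNAs, LINC01602, was called between reverse and mCherry (adjusted p 0.0499), where the reported count was 0. Its adjusted p was 0.122 with a pseudocount of 1. The number of RNAs that meet the rule was 54 with a minimum of 5 normalized reads, 13 with 20, and 63 with a ratio of at least 2. Scaling by library size alone moved the median log2 fold change of all genes to 0.09, 0.10 and 0.09 against mCherry, scramble and reverse. The genes called higher in CR3 then numbered 2734 and those called lower 927, against 1676 and 1733 with the deposited factors, and 1 neighbour was called lower (HOXB4 at -0.21 and UQCRFS1 at -0.12 were not). Without overlapping neighbours 5 were higher and 1 lower, because fewer genes were tested. Chosen after seeing the data, a filter of 10 or more reads in 3 or more of the 9 other libraries kept 15 neighbours, 2 higher and 3 lower. Leaving out 1 library at a time gave 0 to 0 RNAs called in each contrast among mCherry, scramble and reverse, a count that could hardly leave 0 and shows no stability, 28 to 29 called higher in CR3, 9 to 10 neighbours higher and 2 to 3 lower, and 34 to 38 RNAs meeting the rule. FOXF1 then fell as low as 0.34 and HOXB4 came as near 0 as -0.24. No result reversed under the alternatives run. Same-numbered libraries did not deviate together (18 correlations of -0.131 to 0.0675, 0 over 0.1), and a fit with the replicate number as a block left all of these counts as reported: 0, 0 and 0 RNAs called among the controls, 28 called higher in CR3, 10 neighbours higher and 3 lower. The edgeR and DESeq2 alternatives were not run on the rebuilt read counts. At a few reads per library, depth limits every statement about levels outside CR3.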
